A study of Homo sapiens with 12 samples.

Results

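The ATR and ATM checkpoint kinases, their partner and mediator genes and the checkpoint kinases CHEK1 and CHEK2 were followed through CENPA depletion in 22Rv1 cells, a human prostate carcinoma line. The 10 genes were chosen by symbol (ATR, ATRIP, ATM, CHEK1, CHEK2, RAD9A, RAD17, HUS1, TP53BP1 and MDC1), and 9 of them have a row among the 14828 genes of the deposited expression table. ATRIP was not analysed here. All 9 passed the filter on low values, which kept 14624 genes. With either CENPA shRNA, 3 of the 9 genes, CHEK1, CHEK2 and MDC1, had less mRNA than the control, and none had more. Over all genes tested, 4.45% passed as lower and 2.69% as higher with shCENPA1, and 10.5% and 8.03% with shCENPA2. The shCENPA1 count fell to 1 of the 9, CHEK1, when any of the 4 libraries compared was left out. CHEK1 mRNA was lower by about 1 log2 unit, while ATR, ATM, RAD9A, RAD17, HUS1 and TP53BP1 did not pass the test with either shRNA.

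Cells carried a pTRIPZ lentiviral vector, selected with puromycin, that expresses a nontargeting shRNA (shNT) or 1 of 2 shRNAs against CENPA (shCENPA1 and shCENPA2) when doxycycline is given. All groups, the control included, therefore carried the vector and received doxycycline at 2 µg/ml for 72 h. Poly(A) RNA was sequenced from 2 libraries per shRNA, each run in 2 lanes that were averaged, so n = 2 libraries in every group. Nothing in the sources says that the libraries of an shRNA came from separate cultures. The p-values therefore set differences between groups against a spread between libraries that may be technical. The libraries held 79172294 to 133074655 reads on genes. CENPA, the centromeric histone H3 variant that the shRNAs target, measured 2.46 and 2.18 log2 RPKM for shNT, against 0.50 and 0.58 for shCENPA1 and -0.47 and -0.41 for shCENPA2 (RPKM, reads per kilobase of gene, scaled to the reads of the library). CENPA mRNA was 70.9% lower with shCENPA1 (log2 fold change -1.78, adjusted p = 0.000287, limma) and 85.3% lower with shCENPA2 (-2.76, adjusted p = 1.13e-05). Of 8 luminal prostate markers all 8 were in the table, with a summed level of 849, 865 and 889 RPKM for shNT, shCENPA1 and shCENPA2. KLK3, which encodes prostate-specific antigen, was low, at -0.48, -1.25 and -2.12 log2 RPKM. None of 3 basal markers had a row, and of 6 markers of fibroblasts, endothelium and blood cells only COL1A1 and DCN did, at a summed 1.14, 1.55 and 1.45 RPKM.

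ATR and ATM are large kinases of the phosphatidylinositol 3-kinase-related family. ATR, bound to its partner ATRIP, is brought to RPA-coated single-stranded DNA at stalled replication forks, and becomes active once the RAD17 loader has placed the RAD9-RAD1-HUS1 clamp and TOPBP1 has bound. ATM is recruited to double-strand breaks by the MRE11-RAD50-NBN complex, after which MDC1 and TP53BP1 collect on the surrounding chromatin. ATR chiefly phosphorylates CHK1 and ATM chiefly CHK2, and these kinases restrain the CDC25 phosphatases, so that the cell cycle pauses. The activity of these kinases is set by phosphorylation, which mRNA levels do not measure.

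The proximal promoters of the 3 genes that fell are printed with those of ATR and ATM, the kinases upstream, which did not pass. Each is the 250 bases before a RefSeq transcript start on GRCh38.p14, written 5′ to 3′ on the strand of the gene. RefSeq lists 3 windows for CHEK1 and 2 for ATM, and the one listed first was printed and searched, for these and for all other genes. The CHEK1 window lies inside the gene span given for it, which begins at an earlier start. Capitals mark 3 kinds of letters searched on both strands: TTCCCGC or TTGGCGC (an E2F core), TTTGAA (the cell cycle genes homology region, CHR) and CCAAT (the box bound by NF-Y).
CHEK1, chr11:125625979-125626228, plus strand: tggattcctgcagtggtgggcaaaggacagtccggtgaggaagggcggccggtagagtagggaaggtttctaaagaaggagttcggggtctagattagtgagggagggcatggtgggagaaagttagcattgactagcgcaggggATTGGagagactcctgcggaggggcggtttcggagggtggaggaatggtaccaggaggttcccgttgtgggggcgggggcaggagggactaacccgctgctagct
CHEK2, chr22:28741821-28742070, minus strand: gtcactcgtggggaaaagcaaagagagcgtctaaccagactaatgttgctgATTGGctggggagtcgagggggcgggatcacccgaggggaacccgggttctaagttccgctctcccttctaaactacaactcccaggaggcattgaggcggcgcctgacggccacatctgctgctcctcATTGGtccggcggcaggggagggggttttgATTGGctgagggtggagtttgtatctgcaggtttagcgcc
MDC1, chr6:30717282-30717531, minus strand: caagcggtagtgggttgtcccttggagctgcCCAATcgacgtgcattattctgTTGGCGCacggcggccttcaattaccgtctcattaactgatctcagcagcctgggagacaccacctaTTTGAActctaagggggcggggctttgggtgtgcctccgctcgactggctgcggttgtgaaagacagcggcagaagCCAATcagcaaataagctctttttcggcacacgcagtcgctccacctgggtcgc
ATR, chr3:142578734-142578983, minus strand: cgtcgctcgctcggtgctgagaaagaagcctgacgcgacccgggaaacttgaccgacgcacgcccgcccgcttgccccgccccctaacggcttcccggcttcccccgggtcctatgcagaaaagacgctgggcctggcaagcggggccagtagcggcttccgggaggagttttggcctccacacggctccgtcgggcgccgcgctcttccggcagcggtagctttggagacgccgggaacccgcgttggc
ATM, chr11:108222817-108223066, plus strand: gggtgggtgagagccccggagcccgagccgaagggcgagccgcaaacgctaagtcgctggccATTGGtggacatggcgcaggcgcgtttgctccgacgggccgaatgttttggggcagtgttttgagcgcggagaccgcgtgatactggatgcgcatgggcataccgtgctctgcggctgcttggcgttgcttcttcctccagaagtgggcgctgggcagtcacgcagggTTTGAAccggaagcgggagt
Of the 10 genes, 9 matched an entry, and HUS1 did not. The CHEK1 window held 1 CCAAT, and CHEK2 held 3. The MDC1 window held 1 E2F core, 1 CHR and 2 CCAAT. ATM held 1 CHR and 1 CCAAT, and ATR held none of these letters. Among the 9 windows CCAAT was present in 7, an E2F core in 2 (RAD9A and MDC1) and a CHR in 2 (ATM and MDC1). In 27305 RefSeq promoter windows of the same length, CCAAT was found in 33%, an E2F core in 7.95% and a CHR in 13.6%. These matches describe letters only.

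In shNT cells the 9 genes were all of middling abundance. The log2 RPKM scale divides by the gene length that the values imply, such as 4177 bp for HUS1 and 24227 bp for ATM. The order between genes depends on those lengths, and by reads ATM was above HUS1 in every library. On this scale HUS1 was highest at 3.11 ± 0.004 (SD, n = 2) and MDC1 lowest at 1.31 ± 0.03. In between came TP53BP1 (2.85 ± 0.06), CHEK1 (2.67 ± 0.06), RAD17 (2.54 ± 0.05), CHEK2 (2.54 ± 0.04), RAD9A (2.50 ± 0.04), ATM (1.65 ± 0.16) and ATR (1.44 ± 0.08). RAD17 and CHEK2, and CHEK2 and RAD9A, overlapped in their shNT libraries, and the other neighbours in this order did not. HUS1 exceeded 64.1% of the genes in the table and MDC1 34.1%. Each of the 9 genes rested on 953 to 18220 reads per library, and the lanes of a library differed by at most 0.24 log2 units, in MDC1.

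**Figure D1:**
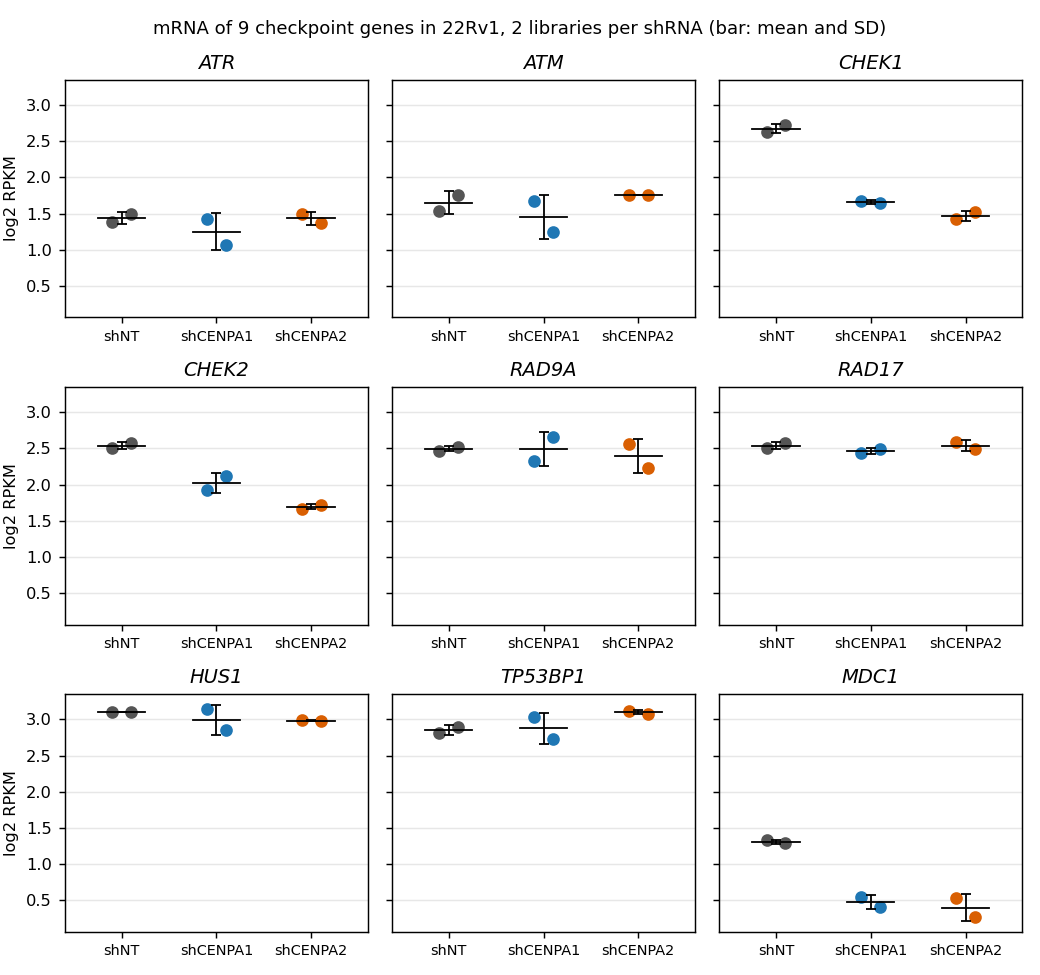
Level of each of the 9 genes in log2 RPKM (vertical axis) in each of the 6 libraries, with 1 point per library, colours for shNT, shCENPA1 and shCENPA2, and black bars for the mean and SD of each group. For CHEK1, CHEK2 and MDC1 both libraries of each CENPA shRNA lie below both shNT libraries, as in CHEK1, at 2.63 and 2.72 with shNT against at most 1.68 with a CENPA shRNA.

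CHEK1 encodes CHK1, the kinase that carries the ATR signal, and lies on chromosome 11 (125625136 to 125681124, plus strand, GRCh38.p14). It stood at 2.63 and 2.72 log2 RPKM in control cells, at 1.68 and 1.64 under shCENPA1 and at 1.42 and 1.52 under shCENPA2. Between 1509 and 4577 reads lay behind each of these values. All 4 CENPA-depleted libraries were below both shNT libraries, and the shCENPA2 libraries were below the shCENPA1 libraries. CHEK1 fell by 1.01 log2 units with shCENPA1 (SE 0.12, 95% CI -1.28 to -0.74, adjusted p = 0.00101, limma), a level 50.4% lower. With shCENPA2 it fell by 1.20 (SE 0.12, 95% CI -1.47 to -0.93, adjusted p = 0.000158), 56.5% lower. CHEK1 was the sole one of the 9 to pass a log2 fold change below -1 as well as the test. With shCENPA1 that second mark was only just reached, and over the 17 other settings the CHEK1 change ran from -1.05 to -0.83.

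CHEK2 encodes CHK2, the kinase that carries the ATM signal, and lies on chromosome 22 (28687742 to 28741834, minus strand). It measured 2.51 and 2.57 log2 RPKM with shNT, 1.93 and 2.12 with shCENPA1, and 1.67 and 1.72 with shCENPA2. The 3 groups did not overlap. CHEK2 fell by 0.84 with shCENPA2 (SE 0.12, 95% CI -1.12 to -0.57, adjusted p = 0.00137, limma), 44.3% lower. With shCENPA1 it fell by 0.51 (SE 0.12, 95% CI -0.79 to -0.24, adjusted p = 0.035), 29.9% lower. The shCENPA1 call was lost when any of the 4 libraries compared was left out, with adjusted p of 0.178 and 0.339 without shNT library 1 and 2, and 0.108 and 0.0662 without shCENPA1 library 1 and 2. RefSeq lists 6 CHEK2 pseudogenes, of which 0 are in the table, and how the counting treated reads that match them is not given in the sources used here.

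MDC1 encodes the mediator that binds phosphorylated histone H2AX beside a break and lies on chromosome 6 (30699807 to 30717281, minus strand). Its level was 1.33 and 1.29 log2 RPKM with shNT, 0.55 and 0.41 with shCENPA1, and 0.53 and 0.27 with shCENPA2. Both CENPA shRNAs lay below shNT in every library, and the libraries of shCENPA1 and shCENPA2 overlapped. MDC1 fell by 0.83 with shCENPA1 (SE 0.16, 95% CI -1.20 to -0.46, adjusted p = 0.0151, limma), 43.7% lower, and by 0.91 with shCENPA2 (SE 0.16, 95% CI -1.28 to -0.54, adjusted p = 0.00436), 46.8% lower. The shCENPA1 call was lost without any of the 4 libraries compared, at adjusted p of 0.115 and 0.109 without shNT library 1 and 2, and 0.0567 and 0.113 without shCENPA1 library 1 and 2. Part of the exons of MDC1 overlap TUBB, a β-tubulin gene on the other strand, which also fell, by 0.47 (adjusted p = 0.0451, limma) and 0.52 (adjusted p = 0.0146). The library kit keeps strand, but whether the counting used it is not given in the sources used here, so reads shared by MDC1 and TUBB cannot be told apart.

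TP53BP1 encodes 53BP1, the mediator that protects broken ends from resection. It was measured at 2.81 and 2.90 log2 RPKM with shNT, 3.03 and 2.73 with shCENPA1, and 3.12 and 3.08 with shCENPA2. The shCENPA1 libraries lay on either side of shNT, and both shCENPA2 libraries were above it. Neither contrast passed, with a log2 fold change of 0.03 (95% CI -0.24 to 0.30, adjusted p = 0.917, limma) for shCENPA1 and 0.24 (-0.03 to 0.52, adjusted p = 0.204) for shCENPA2.

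ATR stood at 1.38 and 1.50 log2 RPKM with shNT, 1.43 and 1.07 with shCENPA1, and 1.50 and 1.37 with shCENPA2. Except for the low second shCENPA1 library, the groups overlapped. The log2 fold change was -0.19 with shCENPA1 (95% CI -0.55 to 0.16, adjusted p = 0.526, limma) and -0.01 with shCENPA2 (-0.37 to 0.35, adjusted p = 0.97). ATM, which lies on chromosome 11 (108223067 to 108369102, plus strand), measured 1.54 and 1.76 log2 RPKM with shNT, 1.67 and 1.24 with shCENPA1, and 1.76 and 1.76 with shCENPA2. Again the second shCENPA1 library alone was below the others. The ATM change was -0.20 with shCENPA1 (95% CI -0.57 to 0.18, adjusted p = 0.537) and 0.11 with shCENPA2 (-0.27 to 0.48, adjusted p = 0.703). These intervals exclude a fall of the size measured for CHEK1 with either shRNA, since their lowest bound was -0.57.

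The second shCENPA1 library differed from the first with gene length, taken as the length that the RPKM values imply. Genes over 10000 bp (1834 genes, a limit chosen after the values were seen) had a median difference of -0.18 log2 units between those libraries, and the other 12790 genes 0.05. The same medians were 0.03 and -0.01 for shNT, and 0.01 and -0.004 for shCENPA2. The longest of the 9 genes are ATM, TP53BP1 and ATR, with differences of -0.43, -0.30 and -0.36 between the shCENPA1 libraries, whereas CHEK1 differed by -0.04. Shorter genes also differed there, HUS1 by -0.29 and RAD9A by 0.33. Without the second shCENPA1 library the ATR change was -0.01, and the ATM change was 0.02. The part of gene length in these values was not tested.

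**Figure D2:**
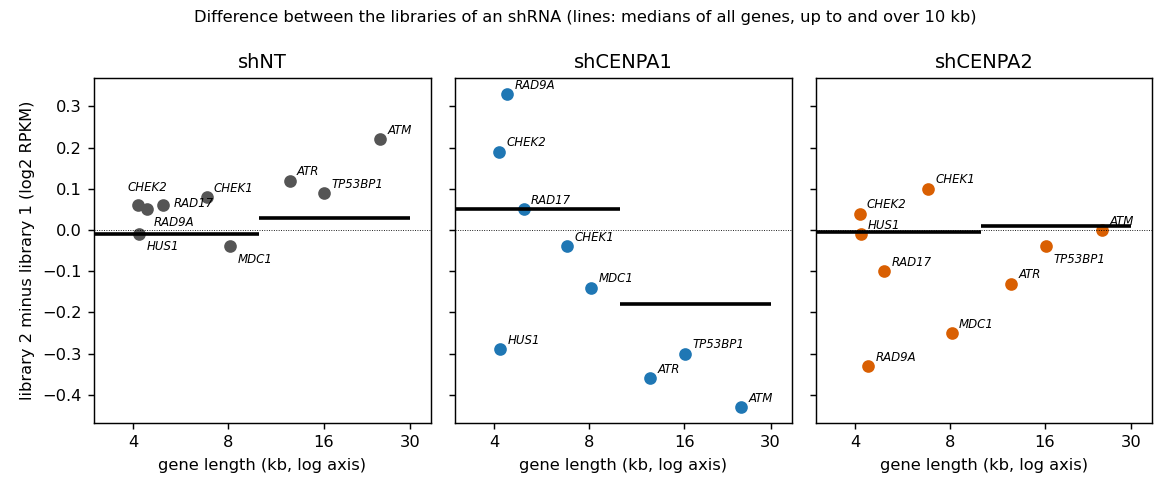
Difference between library 2 and library 1 of the same shRNA in log2 RPKM (vertical axis) against gene length in kb (horizontal log axis), with 1 panel per shRNA, 1 point per gene, and black lines for the medians of all tested genes up to and over 10 kb. In the shCENPA1 panel ATM, ATR and TP53BP1 lie at -0.43, -0.36 and -0.30, below the median of -0.18 for long genes.

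RAD9A, HUS1 and RAD17 did not pass with either shRNA. RAD9A and HUS1 encode subunits of the ring-shaped 9-1-1 clamp, and RAD17 the subunit that loads it. RAD9A measured 2.47 and 2.52 log2 RPKM with shNT, 2.33 and 2.66 with shCENPA1, and 2.56 and 2.23 with shCENPA2. Its CENPA-depleted libraries lay on either side of shNT, with changes of -0.001 (95% CI -0.34 to 0.34, adjusted p = 0.997, limma) and -0.10 (-0.44 to 0.24, adjusted p = 0.693). HUS1 measured 3.11 and 3.11 with shNT, 3.14 and 2.85 with shCENPA1, and 2.99 and 2.98 with shCENPA2. Only 1 shCENPA1 library of HUS1 was above shNT, and the changes were -0.11 (95% CI -0.37 to 0.15, adjusted p = 0.625) and -0.13 (-0.39 to 0.14, adjusted p = 0.5). RAD17 had the narrowest range over the 6 libraries, at 2.51 and 2.57 with shNT, 2.44 and 2.49 with shCENPA1, and 2.59 and 2.49 with shCENPA2. The RAD17 changes were -0.07 (95% CI -0.31 to 0.17, adjusted p = 0.735) and -0.005 (-0.25 to 0.24, adjusted p = 0.98).

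Of the 9 genes, 3 passed as lower and 0 as higher with each shRNA (all genes tested, 4.45% and 2.69% with shCENPA1, 10.5% and 8.03% with shCENPA2). With limma-voom on the recovered reads, 3 were lower and 0 higher with each shRNA. At an unadjusted p under 0.05 the same number, 3, was reached. A log2 fold change below -1 together with the test was met by 1.83% of genes with shCENPA1 and 4.45% with shCENPA2, and by 1 of the 9 genes, CHEK1. The median change of the 9 genes was -0.19 with shCENPA1 and -0.10 with shCENPA2, where the medians of all genes were 0.003 and 0.01. Both contrasts use the same shNT libraries. The 9 genes were also chosen with earlier results of these data known, so their counts beside the shares over all genes are descriptive.

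**Figure D3:**
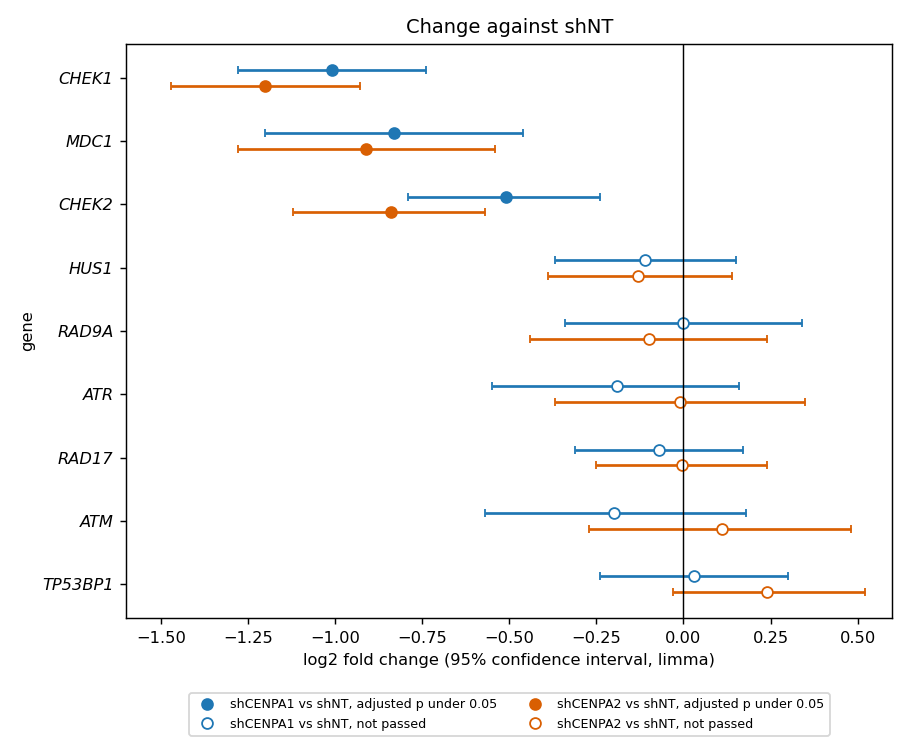
Log2 fold change against shNT (horizontal axis) for each of the 9 genes (vertical axis), with blue for shCENPA1 and orange for shCENPA2. Filled points passed an adjusted p of 0.05 in limma, open points did not, and bars are 95% confidence intervals. CHEK1, MDC1 and CHEK2 lie between -1.20 and -0.51, and the other 6 genes between -0.20 and 0.24 with intervals that include 0.

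Compared directly, shCENPA2 and shCENPA1 gave 0 of 9 genes past the test in limma, 0 with limma-voom and 1 at an unadjusted p under 0.05. Over all genes 1.03% passed as lower with shCENPA2 than with shCENPA1, and 0.39% as higher. CHEK2 was the gene with the low unadjusted p, at a difference of -0.33 (95% CI -0.61 to -0.06, adjusted p = 0.275, limma). The difference was -0.19 for CHEK1 (95% CI -0.46 to 0.08, adjusted p = 0.548) and -0.08 for MDC1 (-0.45 to 0.29, adjusted p = 0.88). Those intervals allow a further fall of up to 0.46 for CHEK1 with shCENPA2. CENPA itself was lower with shCENPA2 than with shCENPA1 (log2 difference -0.98, adjusted p = 0.0209).

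Differences between genes of the same library, in log2 RPKM, do not depend on the scaling of that library. CHEK1 minus CHEK2 came to 0.12 and 0.15 in control cells, to -0.25 and -0.48 under shCENPA1 and to -0.25 and -0.19 under shCENPA2. On this scale CHEK1 was above CHEK2 in both control libraries and below it in all 4 depleted ones. Which gene is above depends on the gene lengths that RPKM divides by, 6821 bp for CHEK1 and 4142 bp for CHEK2. By reads CHEK1 was above CHEK2 in every library, so only the shift between groups is a result. TP53BP1 minus MDC1 went from 1.48 and 1.61 with shNT to 2.48 and 2.32 with shCENPA1, and to 2.59 and 2.80 with shCENPA2. ATM minus ATR was 0.15 and 0.26 with shNT, 0.24 and 0.17 with shCENPA1, and 0.26 and 0.39 with shCENPA2, so the groups overlapped.

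Over the 6 libraries, the genes whose log2 RPKM followed CHEK1 most closely were RACGAP1 (Pearson r = 0.9992), RRM1 (0.9988), C18orf54 (0.9983), FAM83D (0.9981) and HELLS (0.9980). These values describe 6 points that fall into 3 groups and share the same libraries. Among the other 8 genes r with CHEK1 was 0.97 for MDC1 and 0.95 for CHEK2, and between -0.52 (TP53BP1) and 0.57 (HUS1) for the rest. The change with shCENPA1 and shCENPA2 was -1.06 and -1.23 for RACGAP1, -0.60 and -0.68 for RRM1, -1.12 and -1.29 for C18orf54, -1.23 and -1.47 for FAM83D, and -1.16 and -1.48 for HELLS.

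A further 61 genes were listed by role, of which 59 were in the table and all were tested. They are called pathway genes here. Some belong to the ATR and ATM pathways, and others are related to them only by kinase family, by the replication fork or by entry into mitosis. With shCENPA1 19 of the 59 fell and 0 rose, and with shCENPA2 26 fell and 0 rose, with median changes of -0.31 and -0.34. The shares over all genes tested were 4.45% lower and 2.69% higher with shCENPA1, and 10.5% lower and 8.03% higher with shCENPA2. The 59 genes were listed with earlier results of these data known, so the counts beside these shares are descriptive and not an independent test. At an unadjusted p under 0.05 the counts in either direction were 31 and 32, and limma-voom called 22 and 26 lower and 0 higher.

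Of 11 genes for the clamp, its loaders, RPA and the ATR activators, 6 fell with shCENPA1 and 9 with shCENPA2. The replication factor C subunits, which load clamps, are the examples: RFC4 fell by 1.00 and 1.30 on the log2 scale, RFC3 by 0.92 and 1.14, and RFC2 by 0.73 and 1.08. RPA3, the small subunit of the single-strand binding protein, fell by 0.70 and 0.90. Of 6 genes of the fork, 4 fell with both shRNAs. CLSPN encodes claspin, the adaptor through which ATR reaches CHK1, and went from 2.38 and 2.57 log2 RPKM with shNT to 1.06 and 0.75 with shCENPA1 and to 0.75 and 0.34 with shCENPA2. All depleted libraries of CLSPN were below shNT, and it fell by 1.57 (adjusted p = 0.000954, limma) and 1.93 (adjusted p = 0.000122). WDHD1, which links the helicase to DNA polymerase α, fell by 1.17 and 1.51, TIMELESS, of the fork protection complex, by 0.76 and 0.98, and DONSON by 0.61 and 0.46.

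On the ATM side, of 6 genes of the MRN complex and of ATM activation, 1 fell with shCENPA1 and 2 with shCENPA2, counts too small to set apart from the shares of 4.45% and 10.5% over all genes. RBBP8, which encodes the end-resection factor CtIP, fell by 0.45 and 0.57. Of 16 genes acting on chromatin at breaks, 1 fell with shCENPA1 and 5 with shCENPA2, and limma-voom gave 3 and 6. The shCENPA1 count is near the 4.45% of all genes that passed as lower. BRCA1 was the gene that passed with both, from 2.90 and 3.12 log2 RPKM with shNT to 2.00 and 1.69 with shCENPA1 and 1.57 and 1.63 with shCENPA2. It fell by 1.16 (adjusted p = 0.00118, limma) and 1.41 (adjusted p = 0.000169). Of 7 genes for other kinases of the family and their assembly factors, 0 passed with either shRNA, with 1 at an unadjusted p under 0.05 in each contrast and 0 in limma-voom. With so few genes, 0 is near the shares of 4.45% and 10.5% lower over all genes. Their median changes were -0.06 and -0.09.

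Of 13 targets and effectors, 7 fell with shCENPA1 and 6 with shCENPA2. Among them CDC25C and CDC25A, the phosphatases that CHK1 and CHK2 inhibit, fell by 1.31 and 1.44 and by 1.07 and 1.20. PKMYT1, a kinase that inhibits CDK1, fell by 1.02 and 1.65, and MASTL, the Greatwall kinase of mitotic entry, by 0.99 and 1.23. The genes that fell therefore include both activators and inhibitors of CDK1.

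**Figure D4:**
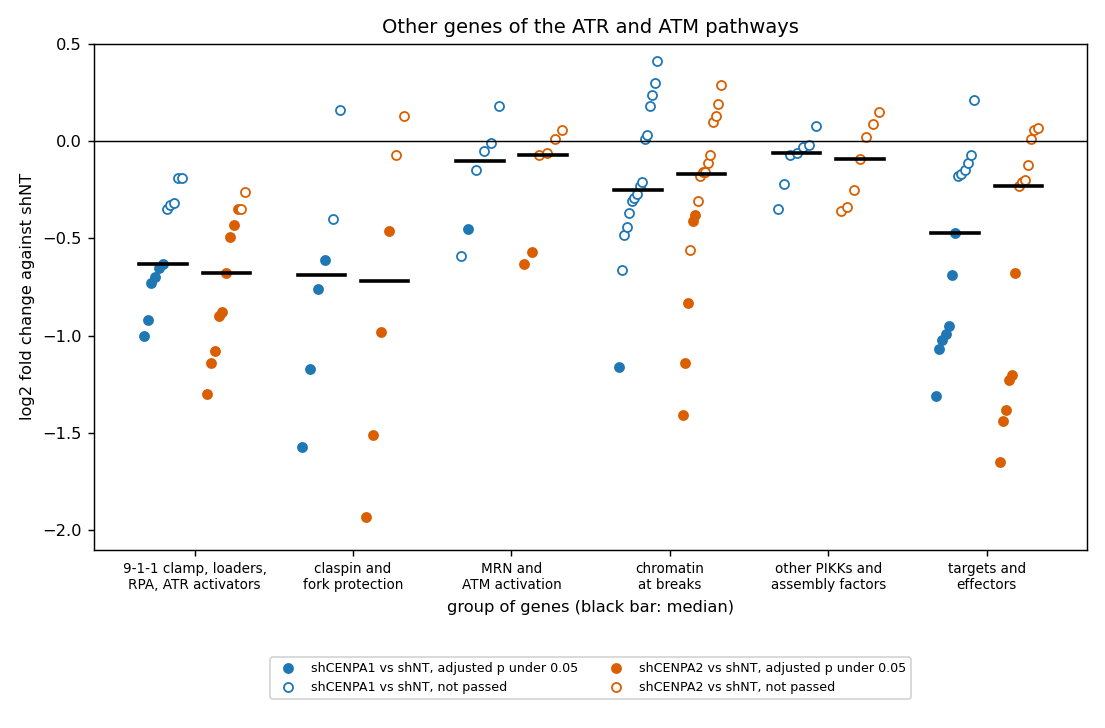
Log2 fold change against shNT (vertical axis) of 59 pathway genes in 6 groups by role (horizontal axis), with 1 point per gene, blue for shCENPA1, orange for shCENPA2, filled where the adjusted p was under 0.05 in limma, and a black bar for the median of a group. Filled points lie below 0 in every group that has any, with CLSPN lowest at -1.93.

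Proliferation genes moved with these results. Of 12 reference genes, all 12 fell with both shRNAs, from -1.40 (MKI67) to -0.89 (AURKA and PCNA) with shCENPA1 and from -1.71 (TOP2A and RRM2) to -1.02 (AURKA) with shCENPA2. Their medians were -1.15 and -1.61. The changes of CHEK1 lay within both ranges, and those of CHEK2 and MDC1 were smaller than any of the 12. The part of proliferation in the results for CHEK1, CHEK2 and MDC1 was not tested, and in bulk RNA fewer cells in the cycle phases that express a gene and less RNA per cell cannot be told apart.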

How the data were processed

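RNA from 22Rv1 cells with shNT, shCENPA1 or shCENPA2 was sequenced as 2 stranded libraries per shRNA, each in 2 lanes. Reads were trimmed (Trim Galore), aligned to hg38 (STAR) and counted per gene (HTSeq) by the authors, who deposited log2 RPKM from edgeR for 14828 genes and 12 runs. Tool versions and the strand setting are not given in the sources used here.

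Whole reads were recovered from the spacing of the deposited log2 values for 14828 of 14828 genes and gave the depth. The gene length is the one these values imply. Lanes were averaged per library. The filter kept 14624 genes, those averaging -3 log2 RPKM or more. limma 3.58.1 (R 4.3.3) then fitted all 6 libraries together by lmFit and by eBayes with a trend, with no covariate. A gene passed at a Benjamini-Hochberg adjusted p under 0.05 over all genes tested. The study called genes on counts, and the deposited unit led to limma here. Fold changes are differences of mean log2 RPKM with nothing added. The scripts were tested on simulated data.

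Alternatives numbered 17. They were lanes as replicates, a replicate block, constants of 0.1 and 1 added to RPKM, other filters, median centring and quantile normalization. The rest were no trend, voom on recovered reads, a fit of only the groups compared, and each library left out. A fold threshold was applied apart from these. The genes, lists and roles were chosen with earlier results of these data known. Pathway genes are named where they passed with both shRNAs, at most 4 per role, by the smaller of their changes. Promoters and positions are from RefSeq on GRCh38.p14.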

Additional observations from a re-analysis of the deposited data

How the results depend on the processing

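CHEK1 passed with both shRNAs, and CHEK2 and MDC1 with shCENPA2, in each of the 17 alternatives, at -1.25 to -0.97, -0.88 to -0.69 and -1.04 to -0.58 with shCENPA2. With shCENPA1, MDC1 was lost among these alternatives only when a library compared was left out. CHEK2 was lost there too, with quantile normalization (adjusted p = 0.052, limma), without the trend (0.0554) and under the replicate block (0.055). The labels do not say whether libraries of the same number are paired. Between shRNAs, the differences between library 2 and library 1 correlated at -0.06, -0.10 and -0.15 across 14624 genes. These values show no sign of pairing but do not settle it. Under the block 2 of the 9 genes were lower with shCENPA1 and 3 with shCENPA2, and of the 59 pathway genes 19 and 22. The block changed no other call among the 9 genes.

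Leaving out 1 library gave 1 to 3 of the 9 genes lower with shCENPA1, and asking for a log2 fold change below -1 left 1 with each shRNA. For the 59 pathway genes that threshold left 7 with shCENPA1 and 12 with shCENPA2. With lanes counted as replicates, which understates the spread, 38 of them passed as lower and 5 as higher with shCENPA1, and 2 as higher with shCENPA2. Of the 9 genes 1 (TP53BP1) then passed as higher with shCENPA2, and between the shRNAs 2 (CHEK1 and CHEK2) were lower and 1 (TP53BP1) higher with shCENPA2.

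Signs turned only for values that did not pass. With 1 library left out, the shCENPA1 change ran from -0.41 to 0.02 for ATM, -0.17 to 0.16 for RAD9A, -0.26 to 0.04 for HUS1 and -0.12 to 0.18 for TP53BP1. The shCENPA2 change ran from -0.08 to 0.05 for ATR, -0.003 to 0.22 for ATM, -0.27 to 0.07 for RAD9A and -0.05 to 0.04 for RAD17. Between the shRNAs it ran from -0.27 to 0.07 for RAD9A, -0.16 to 0.13 for HUS1 and -0.21 to 0.05 for MDC1. RAD9A with shCENPA1 became 0.000 with 1 added to RPKM, 0.02 with median centring or quantiles and 0.01 with voom. With shCENPA2, ATR became 0.01, 0.02 and 0.01, and RAD17 0.02, 0.02 and 0.02, with median centring, quantiles and voom. HUS1 between the shRNAs became 0.02 with voom. With 2 libraries per shRNA, a change of 0.24 log2 units, that of TP53BP1 with shCENPA2, did not pass. The smallest change that could pass was not computed.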

Other observations

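Some pathway genes outside the naming rule were chosen after their values were seen. TOPBP1, which activates ATR, measured 3.93 and 4.01 log2 RPKM with shNT, 3.40 and 3.25 with shCENPA1, and 3.27 and 3.30 with shCENPA2, below shNT in every depleted library. It fell by 0.65 (adjusted p = 0.00375, limma) and 0.68 (adjusted p = 0.00126), while ATR, which it activates, did not pass. WEE1, a kinase that inhibits CDK1, fell by 0.95 (adjusted p = 0.00147) and 1.38 (adjusted p = 7.46e-05). H2AFX, which encodes the histone that MDC1 binds when phosphorylated, fell by 0.83 with shCENPA2 (adjusted p = 0.00138) and had a change of -0.44 with shCENPA1 (adjusted p = 0.0603). BARD1, the partner of BRCA1, fell by 1.14 with shCENPA2 (adjusted p = 0.00212) and had -0.66 with shCENPA1 (adjusted p = 0.0578). The kinase PRKDC, of the same family as ATR and ATM, had -0.35 (adjusted p = 0.107) and -0.34 (adjusted p = 0.0704) and was lower in all 4 depleted libraries than in both shNT libraries. PRKDC is a long gene, at 15417 bp, and its shCENPA1 libraries measured 4.27 and 3.94 log2 RPKM, the second being the lower. The part of gene length in its values was not tested. Other genes that did not pass went the other way, RNF8 and SMARCAL1 among them, which were higher in all 4 depleted libraries than in both shNT libraries. RNF8 had 0.24 (adjusted p = 0.294, limma) and 0.29 (adjusted p = 0.137), and SMARCAL1 had 0.16 (adjusted p = 0.436) and 0.13 (adjusted p = 0.472).

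Of the genes in the table whose exons or promoter regions overlap those of a checkpoint gene, TUBB alone passed, and overlapping genes without a row were not analysed here. NPAT, which shares its promoter region with ATM on the opposite strand, had -0.44 (adjusted p = 0.174, limma) and -0.30 (adjusted p = 0.279). STT3A, whose exons overlap CHEK1 on the same strand, had 0.04 (adjusted p = 0.84) and 0.10 (adjusted p = 0.455). HSCB, whose exons and promoter region overlap those of CHEK2 on the opposite strand, had 0.11 (adjusted p = 0.68) and -0.02 (adjusted p = 0.932). Reads of overlapping exons may be split between neighbours, and how they were split was not tested.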
